A study of Mus musculus with 8 samples.

Results

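The Hox cluster genes are the 38 listed members of the 4 mammalian Hox clusters, and the data described here are the myogenin and p300 ChIP-seq peaks called in and around them. Peaks were taken when they lay within 50 kb of a cluster, with each cluster running from the first to the last listed gene body. This gave 57 peaks of 43759 in the 4 deposited lists. In mm9 the clusters are Hoxa on chromosome 6 (52112350 to 52210874, 10 genes), Hoxb on chromosome 11 (96055630 to 96229570, 10 genes), Hoxc on chromosome 15 (102751534 to 102867274, 9 genes) and Hoxd on chromosome 2 (74506367 to 74603200, 9 genes). C2C12 cells, an established myoblast line derived from C3H mouse muscle, were differentiated for 24 h without bexarotene (Ctl) or with 50 nM bexarotene (Bex), an agonist of the retinoid X receptors (RXR). Neither group carried a genetic change, and both came from the same line. Each of the 4 lists (Myog_Ctl, Myog_Bex, p300_Ctl, p300_Bex) is the call on 1 library, so differences between conditions have no replicate check, and no test between conditions was made. The lists hold positions without tag counts, so the depth behind a peak is unknown and a peak that was not called is not shown to be absent. Intervals around a share or a rate cover counting error over peaks or genes only. Each myogenin list had peaks at 7 of 10 skeletal muscle markers and at 0 of 7 markers of other cell types, while p300_Ctl had peaks at 7 of 10 and 2 of 7 (Gfap and Pparg) and p300_Bex at 4 of 10 and 1 of 7 (Pparg). Of all protein-coding genes, 15.5% had a peak in Myog_Ctl, 15.3% in Myog_Bex, 27.9% in p300_Ctl and 16.1% in p300_Bex. The counts of 0, 1 and 2 of 7 are near what these shares would give, and no test of the markers was made.

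Hox genes encode homeodomain transcription factors that give cells their position along the body axis, and the genes at the 3′ end of a cluster (the anterior groups) are active earlier and further forward than those at the 5′ end (the posterior groups). The clusters are classical targets of retinoic acid, whose receptors bind DNA as heterodimers with RXR at direct repeats of a short half-site. Inactive Hox genes are usually held under Polycomb repression. Myogenin is the basic helix-loop-helix factor that drives terminal muscle differentiation and binds E-boxes, and p300 is a histone acetyltransferase found at active enhancers and promoters.

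The 57 peaks fell mostly on Hoxc. The Hoxc window held 5 Myog_Ctl, 7 Myog_Bex, 19 p300_Ctl and 8 p300_Bex peaks, or 39 in all (68.4%), and 38 of them lay within the cluster itself. The Hoxa window held 2 Myog_Ctl, 0 Myog_Bex, 9 p300_Ctl and 1 p300_Bex peaks. The Hoxb window held 0 Myog_Ctl, 1 Myog_Bex, 4 p300_Ctl and 1 p300_Bex peaks, and these 6 lay in the flank beyond Hoxb1, so that none fell between Hoxb13 and Hoxb1. The Hoxd window held no peak of any list. Over the 4 windows there were 7 Myog_Ctl, 8 Myog_Bex, 32 p300_Ctl and 10 p300_Bex peaks (7, 6, 26 and 8 within the clusters themselves), and merging overlapping peaks gave 49 regions.

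**Figure D1:**
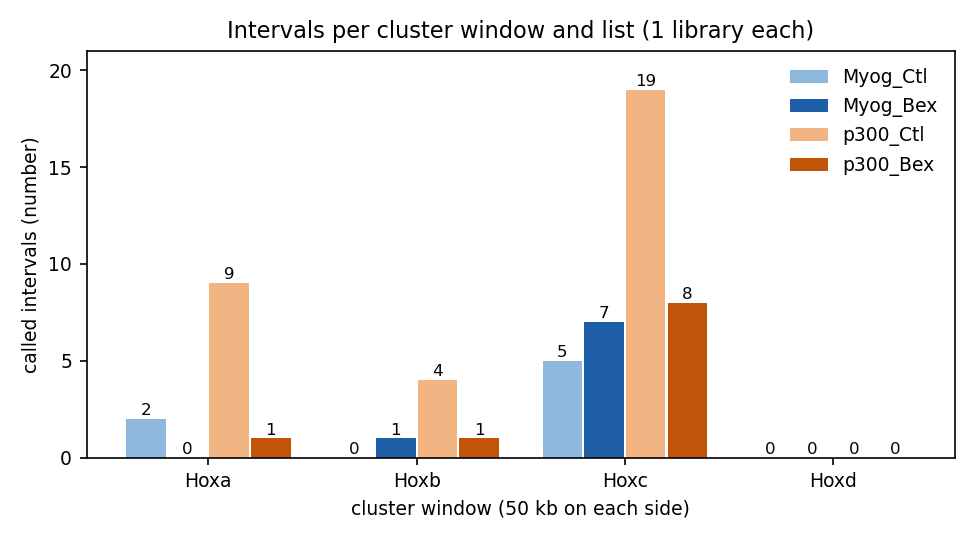
Number of called peaks (vertical axis) in the window of each Hox cluster, 50 kb on each side included, for the 4 lists of 1 library each. Hoxc holds the most peaks in every list, with 19 for p300_Ctl, and Hoxd holds none.

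The sequences below are those of the regions where both factors were called, of examples of peaks with an E-box near the start of a Hox gene, and of the longest peak of each factor, read from the plus strand of mm9. Capitals mark the E-box CAGCTG and the form CACCTG read on either strand (as CAGGTG when it lies on the minus strand), and in the myogenin peaks that hold none of these they mark any CANNTG. The first is the Myog_Bex peak beyond Hoxb1, the single place in the windows where myogenin and p300 were called in the same condition.
Myog_Bex chr11:96274988-96275199: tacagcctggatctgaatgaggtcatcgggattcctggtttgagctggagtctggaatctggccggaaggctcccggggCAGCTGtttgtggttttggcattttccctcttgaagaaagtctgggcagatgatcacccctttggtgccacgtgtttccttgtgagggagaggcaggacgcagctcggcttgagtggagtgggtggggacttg
The next pair are the Myog_Bex peaks upstream of Hoxc10 and in a Hoxc6 intron, both of which overlap a p300_Ctl peak and neither of which holds a CANNTG.
Myog_Bex chr15:102793848-102794015: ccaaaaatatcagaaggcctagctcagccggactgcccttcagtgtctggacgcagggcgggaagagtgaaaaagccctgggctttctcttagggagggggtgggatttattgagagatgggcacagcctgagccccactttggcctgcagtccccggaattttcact
Myog_Bex chr15:102830478-102830645: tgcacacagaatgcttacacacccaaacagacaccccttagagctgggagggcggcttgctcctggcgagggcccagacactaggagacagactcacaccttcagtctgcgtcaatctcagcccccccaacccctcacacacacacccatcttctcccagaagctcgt
The Myog_Ctl peak over a coding exon of Hoxc13 holds CAGGTG, and the p300_Bex peak at the start of Hoxc6 holds CAGCTG.
Myog_Ctl chr15:102752220-102752391: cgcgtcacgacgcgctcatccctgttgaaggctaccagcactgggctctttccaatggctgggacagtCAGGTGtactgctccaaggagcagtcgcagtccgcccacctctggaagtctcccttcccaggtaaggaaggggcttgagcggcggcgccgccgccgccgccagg
p300_Bex chr15:102828452-102828609: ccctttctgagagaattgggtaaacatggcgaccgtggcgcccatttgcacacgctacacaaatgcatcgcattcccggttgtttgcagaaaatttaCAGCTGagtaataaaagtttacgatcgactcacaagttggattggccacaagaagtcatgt
The p300_Ctl peak over the Hoxa7 start overlaps an untranslated region, and the 30 bases around its CAGCTG are shown.
p300_Ctl chr6:52171830-52171859: gcactgcagccgCAGCTGctctggcccgcg
The longest p300 peak (central 300 bases shown, with its CAGCTG at 102778157 to 102778162 lying outside them) lies between Hoxc12 and Hoxc11, and the longest myogenin peak lies in a Hoxc9 intron.
p300_Ctl chr15:102777762-102778061: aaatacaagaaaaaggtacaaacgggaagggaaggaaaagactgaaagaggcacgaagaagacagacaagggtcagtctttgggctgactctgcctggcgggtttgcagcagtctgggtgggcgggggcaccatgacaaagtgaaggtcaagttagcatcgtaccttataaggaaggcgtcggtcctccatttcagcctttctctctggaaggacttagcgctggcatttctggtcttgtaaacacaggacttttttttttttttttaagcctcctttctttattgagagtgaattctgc
Myog_Bex chr15:102813657-102813878: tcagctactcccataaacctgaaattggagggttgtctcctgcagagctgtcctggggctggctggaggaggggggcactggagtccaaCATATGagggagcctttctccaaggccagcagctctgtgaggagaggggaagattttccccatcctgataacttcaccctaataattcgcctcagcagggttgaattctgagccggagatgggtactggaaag

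Relative to the rest of the genome, peaks were denser over the 4 Hox windows as a whole, and outside Hoxc this held for p300_Ctl alone, through Hoxa. Myog_Ctl had 7.91 peaks per Mb (95% Poisson interval 3.18 to 16.3) against 2.31 elsewhere, and Myog_Bex had 9.04 (3.90 to 17.8) against 2.59. p300_Ctl had 36.2 per Mb (24.7 to 51.0) against 8.61, and p300_Bex had 11.3 (5.42 to 20.8) against 3.58. The density of the Hox windows was therefore 3.43, 3.49, 4.20 and 3.16 times that elsewhere, in the order of the lists. Genes are also denser here, with 38 in 0.885 Mb against 22232 protein-coding genes in all, and 2558 Mb lie elsewhere. The densities are per Mb and not per gene, and the part of gene density in them was not tested. Over the Hoxa, Hoxb and Hoxd windows, the density was 2.99 peaks per Mb (0.362 to 10.8) for Myog_Ctl, 1.49 (0.0378 to 8.32) for Myog_Bex, 19.4 (10.3 to 33.2) for p300_Ctl and 2.99 (0.362 to 10.8) for p300_Bex. The p300_Ctl interval lay above the density elsewhere, and the other intervals included it. This p300_Ctl value rested on Hoxa (45.3 per Mb, 20.7 to 86.1), since the intervals for Hoxb (14.6, 3.98 to 37.4) and Hoxd (0 peaks, up to 18.7) included the 8.61 elsewhere.

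To place the Hoxc count, the genome was divided into 12223 tiles as long as the Hoxc window. The tiles were not matched for gene density, so their ranks do not account for it. At least 19 p300_Ctl peaks were found in 12 tiles (0.0982%), at least 8 p300_Bex peaks in 73 (0.597%), at least 5 Myog_Ctl peaks in 208 (1.70%) and at least 7 Myog_Bex peaks in 80 (0.655%). For the 4 lists together, 9 tiles (0.0736%) held at least 39 peaks. The Hoxa count was less extreme, with at least 9 p300_Ctl peaks in 448 of 13281 tiles (3.37%), and at least 4 p300_Ctl peaks, the Hoxb count, were found in 2400 of 9621 tiles (24.9%). The empty Hoxd window was ordinary by this measure, since 6544 of 13398 tiles of its length (48.8%) held no peak of any list.

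The control and bexarotene lists of each factor were then set against each other. None of the 7 Myog_Ctl peaks overlapped a Myog_Bex peak, so that 7 of 7 were unique to control (100%, 95% Wilson interval 64.6 to 100), against 49.4% of all Myog_Ctl peaks. Likewise 8 of 8 Myog_Bex peaks were unique to bexarotene (100%, 67.6 to 100), against 54.9% of all Myog_Bex peaks. For p300, 27 of 32 control peaks were unique to control (84.4%, 68.2 to 93.1), against 67.3% of all p300_Ctl peaks, and 5 overlapped a bexarotene peak. Of the 10 p300_Bex peaks, 5 were unique to bexarotene (50.0%, 23.7 to 76.3), against 20.3% of all p300_Bex peaks, and 5 were shared.

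The number of p300 peaks was lower with bexarotene in each cluster that had any. The ratio of p300_Bex to p300_Ctl peaks was 0.111 at Hoxa, 0.250 at Hoxb, 0.421 at Hoxc and 0.312 over the clusters, and over the genome it was 0.415 (9154 against 22051). The Hoxc ratio was therefore close to that of the whole lists. For myogenin the ratio was 1.40 at Hoxc, 1.14 over the clusters and 1.12 over the genome. The depth of the libraries, which sets how many peaks are called, is not given by the lists.

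**Figure D2:**
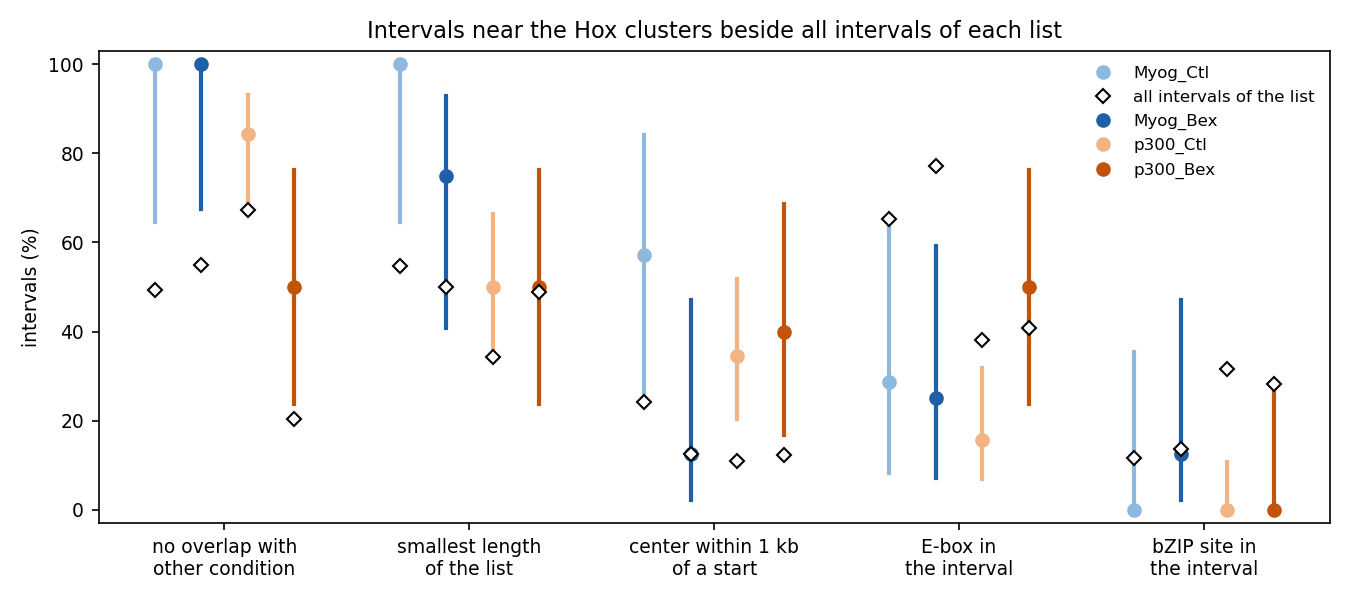
Percent of peaks (vertical axis) with each property on the horizontal axis, for the peaks near the Hox clusters (filled circles with 95% Wilson intervals as vertical lines, 7 Myog_Ctl, 8 Myog_Bex, 32 p300_Ctl and 10 p300_Bex peaks) and for all peaks of the same list (open diamonds). Both myogenin lists stand at 100% without overlap between conditions, and the p300 lists stand at 0% for the bZIP site.

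Many of the peaks had the smallest length of their list. For Myog_Ctl this was 7 of 7, at 172 bp (95% Wilson interval 64.6 to 100%, against 54.8% of the whole list). For Myog_Bex it was 6 of 8, at 168 bp (40.9 to 92.9%, against 50.0%). For p300, 16 of 32 control peaks were at 159 bp (33.6 to 66.4%, against 34.3%) and 5 of 10 bexarotene peaks at 158 bp (23.7 to 76.3%, against 48.9%). The interval excluded the share of the list for Myog_Ctl and included it for the others. Together 34 of the 57 (59.6%) had the smallest length, against 42.5% of the peaks of the 4 lists. The median length near the Hox genes was 172, 168, 180 and 191 bp, and over the whole lists 172, 189, 230 and 197 bp. A peak of the smallest length is one that the caller did not extend, and its tag count is not known. Without such peaks in either list, 0 Myog_Ctl, 2 Myog_Bex, 12 p300_Ctl and 1 p300_Bex peaks were unique to their condition. The share unique to a condition among all peaks of the smallest length was not computed, so the shares given earlier for the whole lists are not matched for length. The 16 p300_Ctl peaks at 159 bp were unique to control, and the 5 shared with bexarotene ran from 217 to 432 bp.

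Hoxc is described first, from its 5′ end. Distances are to the nearest annotated protein-coding transcript start of a gene, which can lie inside the gene body. Hoxc13, a posterior gene known for hair and nail formation, held the Myog_Ctl peak over a coding exon (102752220 to 102752391), with the center 772 bp downstream of the start. Its nearest Myog_Bex peak was 42398 bp away and its nearest p300_Ctl peak 26378 bp away. Hoxc12 had no peak within 10 kb, although its nearest p300_Ctl peak was 10724 bp from its start.

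Between Hoxc12 and Hoxc11, p300 peaks lay over Gm16258, a noncoding gene for which RefSeq lists the synonym Hotair. The longest p300 peak of the windows was here, from 102777656 to 102778167 (512 bp, Ctl). A p300_Bex peak (102778266 to 102778423) lay 98 bp beyond it and a further p300_Ctl peak (102778558 to 102778716) 134 bp beyond that. The 3 peaks did not overlap, so they counted as unique to their condition although their centers were within 433 bp of each other at neighboring pairs.

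Hoxc11, a posterior gene expressed in hindlimb, had 8 p300_Ctl and 2 p300_Bex peaks in its body or within 10 kb of its start. The p300_Ctl peak nearest its start (102784831 to 102785044) was centered 80 bp downstream of it over an exon, and the next (102785494 to 102785652) 715 bp downstream. The p300_Bex peak (102784118 to 102784275) was centered 661 bp upstream of the start and was unique to bexarotene. The nearest myogenin peak, Myog_Ctl at 102790736 to 102790907, was 5964 bp away and held an E-box within 50 bp of its center.

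Hoxc10, expressed in lumbar and hindlimb tissue, had 7 p300_Ctl, 2 p300_Bex, 2 Myog_Ctl and 2 Myog_Bex peaks by the same rule. At its start p300 was called in both conditions. The control peak of 319 bp was centered 228 bp upstream and the bexarotene peak (102796938 to 102797207, 270 bp) 154 bp upstream, and they had 221 bp in common. Further upstream lay a p300_Bex peak unique to bexarotene (102795216 to 102795439, center 1899 bp from the start), with an E-box within 50 bp of its center. The Myog_Ctl peak at 102795637 to 102795808 lay 197 bp beyond it, and the Myog_Bex peak at 102793848 to 102794015 overlapped a p300_Ctl peak by 100 bp. Around Hoxc10 the one place called in both conditions for a factor was therefore the p300 peak at the start.

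Hoxc9, a gene of trunk identity, had 6 p300_Ctl, 1 p300_Bex, 1 Myog_Ctl and 3 Myog_Bex peaks. Its longest was a p300_Ctl peak in an intron (102807600 to 102808054, 455 bp), centered 364 bp downstream of an internal Hoxc9 start. Myog_Bex peaks lay 1351 bp upstream of the 5′ start (102805435 to 102805602, holding TGAGTCA), and 1498 bp (102808877 to 102809044, holding CAGCTG) and 6305 bp downstream of the internal start (102813657 to 102813878, 222 bp). The Myog_Ctl peak lay over a coding exon (102812609 to 102812780). None of these myogenin peaks overlapped a p300 peak of either condition. Hoxc8 had no peak in its body, and its nearest was a p300_Ctl peak 3115 bp upstream of its start.

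Hoxc6, a gene of thoracic identity with annotated starts at its 5′ end and inside the gene, had 4 p300_Ctl, 4 p300_Bex, 1 Myog_Ctl and 2 Myog_Bex peaks. Of the Hox genes that had p300 peaks, it was the one with as many in bexarotene as in control. The p300_Bex peak shown above was centered 157 bp upstream of its 5′ start, and another p300_Bex peak (102829186 to 102829343) was centered 577 bp downstream. The Myog_Ctl peak over its untranslated region (102828985 to 102829156) lay between them, 29 bp from the latter. In the intron p300 was shared at 2 places, with 158 bp (102829859 to 102830102 in control) and 216 bp (102832670 to 102832886 in control) in common. The Myog_Bex peak at 102830478 to 102830645 overlapped a p300_Ctl peak by 102 bp, and the Myog_Bex peak at 102832469 to 102832636 fell in the space between p300_Ctl peaks, 21 and 33 bp from them.

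At the 3′ end Hoxc5 had no peak within 10 kb, and Hoxc4 had 1, a Myog_Bex peak past its 3′ end (102870399 to 102870566) that held the Hox-Pbx sequence TGATTTAT. The 19 p300_Ctl peaks of Hoxc spanned 54.9 kb, from the Gm16258 region to Hoxc6, with a median of 2240 bp between neighboring centers. The 8 p300_Bex peaks spanned 54.4 kb, with a largest gap of 31458 bp that took in the Hoxc10, Hoxc9 and Hoxc8 bodies. The Myog_Ctl and Myog_Bex peaks were spread over 76.8 and 76.6 kb.

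**Figure D3:**
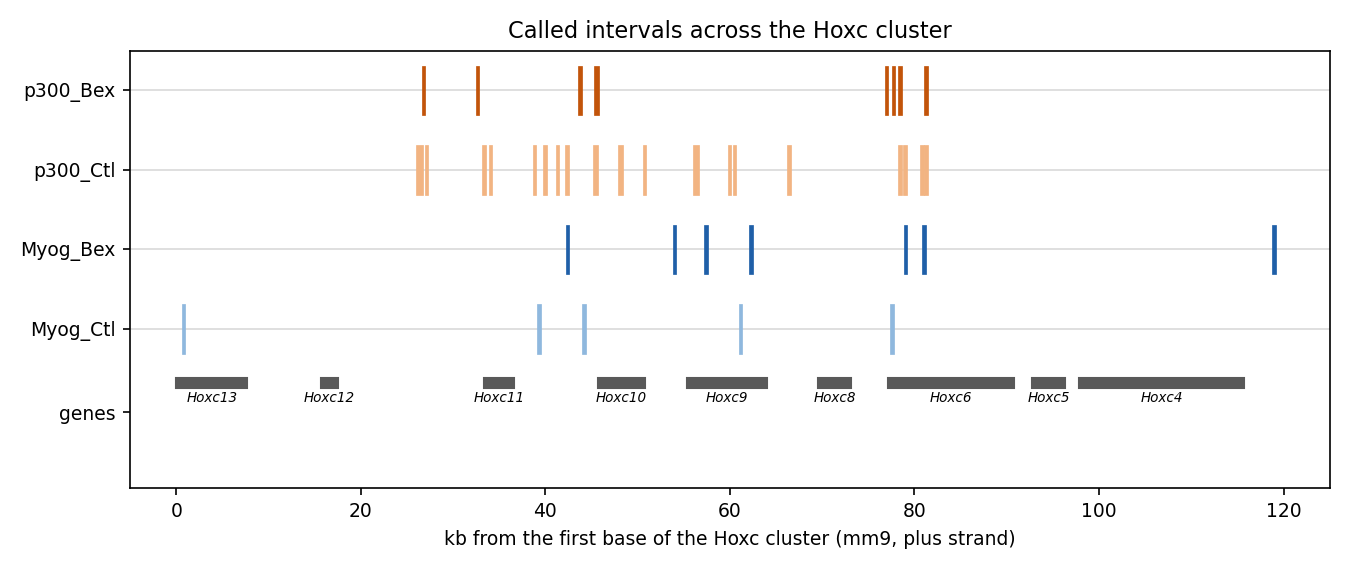
Called peaks across the Hoxc cluster, in kb from its first base along the plus strand of mm9, with 1 lane per list (1 library each) and gray boxes for the annotated gene bodies. Bars are drawn at the peak positions and slightly widened by their outline, and p300_Ctl peaks run from the space before Hoxc11 to Hoxc6 without any over Hoxc13, Hoxc12, Hoxc5 or Hoxc4.

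At Hoxa 6 of the 9 p300_Ctl peaks lay on the genes from Hoxa7 to Hoxa11. Hoxa7, a gene of trunk identity, had a p300_Ctl peak over its start (52171776 to 52172085, 310 bp, center 78 bp from the start) and a Myog_Ctl peak (52170341 to 52170512) centered 35 bp from an annotated internal start. Hoxa9, a posterior gene with roles in limb and blood cells, had a p300_Ctl peak 180 bp upstream of an annotated start and a Myog_Ctl peak in an intron (52175077 to 52175248), 987 bp downstream. Hoxa10 had 3 p300_Ctl peaks in its body, of 159 bp each, with the nearest 211 bp from its start. Hoxa11, needed for forelimb patterning, had a p300_Ctl peak 314 bp downstream of its start (52195786 to 52196011), where the antisense gene Hoxa11as overlaps. Hoxa13 and Hoxa4 had no peak within 10 kb.

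The anterior side of Hoxa had fewer p300 peaks. A p300_Ctl peak lay 1358 bp downstream of a Hoxa3 start (52161600 to 52161816), in a Hoxa3 intron as the long annotated transcript gives it and over 2700086A05Rik, and the same peak was 2987 bp from an internal Hoxa6 start and 7122 bp from the Hoxa5 start. Beyond Hoxa2 a p300_Ctl peak (52110923 to 52111172) lay over the noncoding gene Gm15051, 4364 bp from the Hoxa2 start. Further out, 14530 bp from that start, was the single place at Hoxa where p300 was called in both conditions, from 52100702 to 52101061 in bexarotene (360 bp) and from 52100748 to 52101054 in control (307 bp), with CAGCTG present 2 times. It was also the single bexarotene peak of either factor in the Hoxa window, so that the 8 p300_Ctl peaks over or next to the listed genes and both Myog_Ctl peaks were unique to control.

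The peaks at Hoxb gathered at 1 place outside the cluster. The 4 p300_Ctl peaks spanned 6.10 kb, centered between 41950 and 48051 bp past the Hoxb1 start, and the last of them (96274901 to 96275332, 432 bp) overlapped both the p300_Bex peak (96274806 to 96275125, 320 bp) and the Myog_Bex peak (96274988 to 96275199, 212 bp). The Myog_Bex peak lay whole within the p300_Ctl peak and shared 138 bp with the p300_Bex peak. Its CAGCTG began at 96275067 and was followed by the Runx sequence TGTGGT, which began at 96275075, and both motifs lay in each of the 3 peaks. No annotated gene overlapped these peaks, and the nearest protein-coding gene outside the cluster was Skap1, 50.7 kb beyond the Myog_Bex peak.

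**Figure D4:**
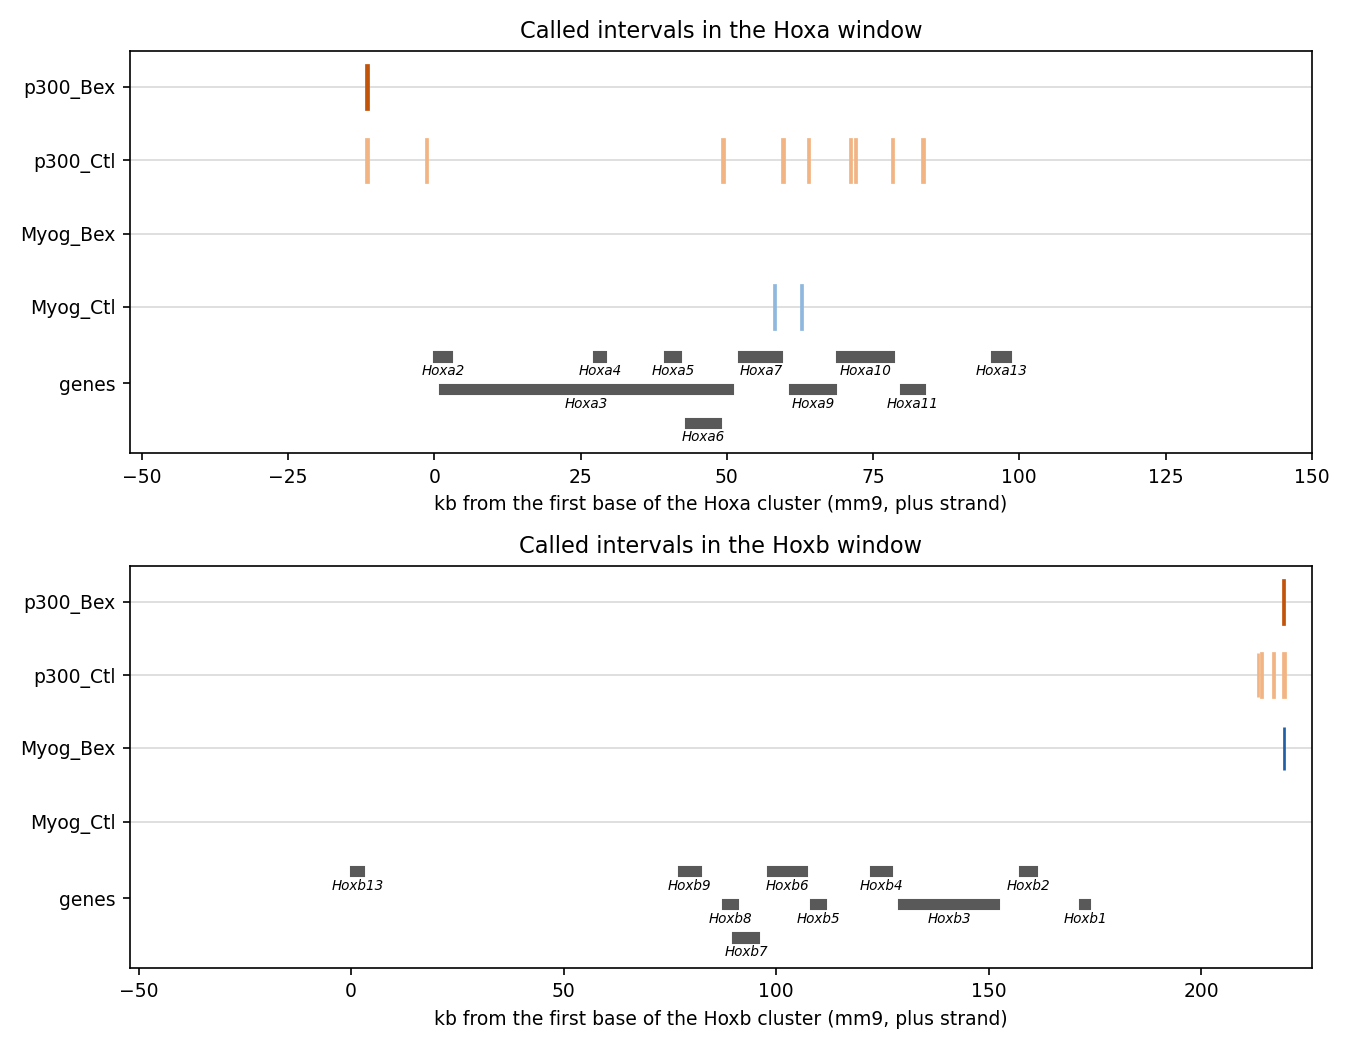
Called peaks in the Hoxa window (upper panel) and the Hoxb window (lower panel), in kb from the first base of each cluster along the plus strand of mm9, with 1 lane per list (1 library each) and gray boxes for gene bodies. At Hoxa the single p300_Bex peak lies outside the listed genes, and at Hoxb the 6 peaks lie beyond Hoxb1.

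By gene, 15 of the 38 had a peak in the body or within 10 kb of a start in at least 1 list. They were Hoxa2, Hoxa3, Hoxa5, Hoxa6, Hoxa7, Hoxa9, Hoxa10, Hoxa11, Hoxc4, Hoxc6, Hoxc8, Hoxc9, Hoxc10, Hoxc11 and Hoxc13, and neighboring genes shared peaks. Myog_Ctl reached 10 genes (26.3%, 95% Wilson interval 15.0 to 42.0), against 15.5% of protein-coding genes. Myog_Bex reached 6 (15.8%, 7.44 to 30.4, against 15.3%), p300_Ctl 13 (34.2%, 21.2 to 50.1, against 27.9%) and p300_Bex 5 (13.2%, 5.75 to 27.3, against 16.1%). These intervals include the share of protein-coding genes in each list, so over the 38 genes together no share was distinguishable from the background. This pooled share mixed clusters that differed. At Hoxc, Myog_Ctl and Myog_Bex each reached 6 of 9 genes (35.4 to 87.9%), p300_Ctl 5 of 9 (26.7 to 81.1%) and p300_Bex 5 of 9 (26.7 to 81.1%), and these intervals lay above the background except for p300_Ctl. At Hoxa, p300_Ctl reached 8 of 10 genes (49.0 to 94.3%), Myog_Ctl 4 of 10 (16.8 to 68.7%) and the bexarotene lists 0 of 10. At Hoxb and Hoxd no list reached a gene. Intervals over genes treat each gene as independent, which genes that share a peak are not. The 6 Hoxc genes of Myog_Ctl rested on 5 peaks, and the 4 Hoxa genes of Myog_Ctl on 2 peaks. Of the 11 anterior genes (groups 1 to 4) 3 had a peak, of the 11 central genes (groups 5 to 8) 5, and of the 16 posterior genes (groups 9 to 13) 7. These counts over any list have no background share. For p300_Ctl they were 2 of 11 anterior genes (5.14 to 47.7%), 5 of 11 central genes (21.3 to 72.0%) and 6 of 16 posterior genes (18.5 to 61.4%), and each interval included the 27.9% of protein-coding genes. For Myog_Ctl the anterior (1.62 to 37.7%) and central (9.75 to 56.6%) intervals included the 15.5% of protein-coding genes. The posterior one (6 of 16, 18.5 to 61.4%) lay above it, with peaks shared between genes. In both bexarotene lists the interval of each zone included the background.

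**Figure D5:**
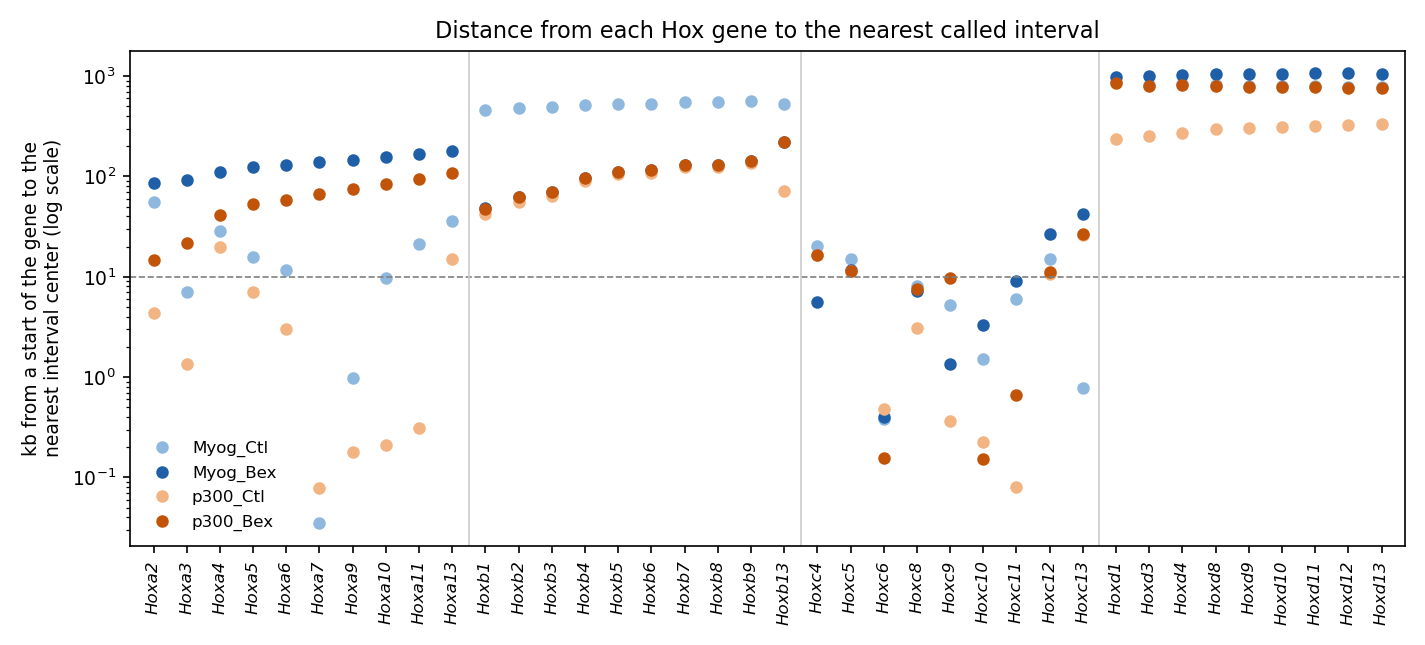
Distance in kb (log scale) from each Hox gene's nearest annotated start to the center of the nearest peak of each list (1 library each), with clusters separated by vertical lines and 10 kb by the dashed line. The closest distances are at Hoxa7 (35 bp for Myog_Ctl and 78 bp for p300_Ctl) and Hoxc11 (80 bp, p300_Ctl), and for Hoxd1 the nearest p300_Ctl peak is 237556 bp away.

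The peaks lay near starts more often than those of the genome for 3 of the lists, for Myog_Ctl by a narrow margin of its interval. Starts lie close together in the clusters, and the part of this spacing in the shares was not tested. The center was within 1 kb of the start of a listed gene for 4 of 7 Myog_Ctl peaks (57.1%, 95% Wilson interval 25.0 to 84.2, against 24.2% of all Myog_Ctl peaks within 1 kb of a protein-coding start). It was so for 11 of 32 p300_Ctl peaks (34.4%, 20.4 to 51.7, against 11.0%) and 4 of 10 p300_Bex peaks (16.8 to 68.7%, against 12.4%). For Myog_Bex it was 1 of 8 (12.5%, 2.24 to 47.1, against 12.5%).

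Myogenin and p300 seldom met at these genes. In the same condition 0 of 7 Myog_Ctl peaks overlapped p300 (interval up to 35.4%, against 33.0% of all Myog_Ctl peaks), and 1 of 8 Myog_Bex peaks did (12.5%, 2.24 to 47.1, against 25.6%). None of the 32 p300_Ctl peaks overlapped myogenin (interval up to 10.7%, against 8.79%), and 1 of 10 p300_Bex peaks did (10.0%, 1.79 to 40.4, against 18.5%). The intervals include the background shares, so a lower overlap than elsewhere was not detectable with these numbers. When p300 of either condition was counted, 3 Myog_Bex peaks overlapped it, the one beyond Hoxb1 and the pair at Hoxc10 and Hoxc6.

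The E-box of myogenin (CAGCTG or CACCTG, on either strand) was found in a smaller share of the myogenin peaks here than of the myogenin lists as a whole. It lay within 50 bp of the center in 2 of 7 Myog_Ctl peaks (28.6%, 95% Wilson interval 8.22 to 64.1, against 47.7% of that list) and 2 of 8 Myog_Bex peaks (25.0%, 7.15 to 59.1, against 60.3%). Over the whole peak it was present in 4 of the 15 myogenin peaks against 71.5% of all myogenin peaks, and any CANNTG, a class that contains it, in 8 of 15 against 86.7%. Within 50 bp the interval excluded the share of the list for Myog_Bex and included it for Myog_Ctl. Over the whole peak both lists had an interval below the share of the list, at 2 of 7 for Myog_Ctl (8.22 to 64.1%, against 65.2%) and 2 of 8 for Myog_Bex (7.15 to 59.1%, against 77.2%). Of these peaks, 7 of 7 Myog_Ctl and 6 of 8 Myog_Bex had the smallest length of their list, against 54.8 and 50.0% of the lists. The E-box share among all peaks of that length was not computed, so the part of peak length was not tested. The myogenin peaks with the E-box were those at Hoxc13, between Hoxc11 and Hoxc10, in the Hoxc9 intron and beyond Hoxb1. In p300 peaks it lay within 50 bp of the center in 2 of 32 for control (6.25%, 1.73 to 20.1, against 19.6%) and 2 of 10 for bexarotene (5.67 to 51.0%, against 25.2%). Over the whole p300 peak it was present in 5 of 32 for control (15.6%, 6.86 to 31.8, against 38.1%) and 5 of 10 for bexarotene (50.0%, 23.7 to 76.3, against 40.7%).

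The bZIP sequence TGACTCA (on either strand), a site of AP-1 factors, was present in 30.6% of all p300 peaks and in 0 of the 42 p300 peaks near the Hox clusters, a number that counts the 5 places shared between conditions in both lists. By list this was 0 of 32 in control (95% Wilson interval up to 10.7%, against 31.6%) and 0 of 10 in bexarotene (up to 27.8%, against 28.3%). The other sequences searched, each on both strands and over the whole peak, were the Runx sequence TGTGGT in 6 of 42 p300 peaks (35.7% of all p300 peaks), of which 4 are the shared places beyond Hoxa2 and Hoxb1 counted in both lists, the Tead sequence GGAATG in 4 (22.8%), the Meis sequence TGACAG in 2 (19.1%) and the Hox-Pbx sequence TGATTNAT in 3 (7.91%). The intervals of p300_Ctl excluded the share of its list for Runx (12.5%, 4.97 to 28.1, against 36.4%), Tead (6.25%, 1.73 to 20.1, against 23.7%) and Meis (3.12%, 0.554 to 15.7, against 19.6%), and not for Hox-Pbx (6.25%, 1.73 to 20.1, against 8.42%). For p300_Bex the counts were 2 of 10 for Runx (5.67 to 51.0%, against 34.1%), 2 for Tead (5.67 to 51.0%, against 20.7%), 1 for Meis (1.79 to 40.4%, against 17.9%) and 1 for Hox-Pbx (1.79 to 40.4%, against 6.69%), and these intervals included the share of the list. Of the 15 myogenin peaks 1 held TGACTCA (12.7% of all myogenin peaks). Peaks of the whole lists were longer, and when the central 200 bases of every peak were searched instead (a window chosen after seeing the data), the p300_Ctl interval still excluded the share of its list for TGACTCA (up to 10.7%, against 27.8%) and Runx (9.38%, 3.24 to 24.2, against 31.1%), while for Tead (1.73 to 20.1%, against 18.7%) and Meis (0.554 to 15.7%, against 14.8%) it no longer did. For p300_Bex the interval for TGACTCA then included the share of its list (up to 27.8%, against 27.1%), and that for Runx excluded it (0 of 10, up to 27.8%, against 32.7%). The peaks near the Hox clusters were also richer in G and C, and the part of base composition in these shares was not tested. The median G and C content of the central 200 bases was 53.0% in p300_Ctl against 47.0%, 53.0% in p300_Bex against 47.5%, 57.5% in Myog_Ctl against 51.0% and 55.0% in Myog_Bex against 50.5%. A sequence that is not matched is only a statement about those letters in that peak.

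Direct repeats of the half-site AGGTCA or a variant of it (the form GGGTCA, the form AGTTCA or the form GGTTCA), to which retinoid receptors bind, were searched on both strands with 1, 2 or 5 bases between them (DR1, DR2, DR5). The windows held 24, of which 10 were DR1, 5 DR2 and 9 DR5, and none of them lay inside a peak of any list. DR5 occurred at 1.02 per 100 kb against 0.349 over the genome, DR1 at 1.13 against 0.643 and DR2 at 0.565 against 1.06. Of the 9 DR5, 6 had the half-sites GGTTCA and AGTTCA in that order, an arrangement found 397 times in the genome (0.678 against 0.0155 per 100 kb), and each window held at least 1, at Hoxc in the flank. This subset was picked after the sequences were seen. Of these, 5 are shown 5′ to 3′ on the strand of the repeat, with the half-sites in capitals and the spacer in lower case, to let the clusters be compared.
DR5 2.89 kb from a Hoxa3 start, chr6:52125532-52125548, minus strand: GGTTCAagaagAGTTCA
DR5 2.52 kb from a Hoxb3 start, chr11:96202550-96202566, plus strand: GGTTCAagaagAGTTCA
DR5 7.03 kb past the Hoxb1 start, chr11:96234090-96234106, plus strand: GGTTCAtagagAGTTCA
DR5 27.3 kb past a Hoxc4 start, chr15:102892145-102892161, plus strand: GGTTCAccgagAGTTCA
DR5 1.93 kb from a Hoxd3 start, chr2:74579597-74579613, plus strand: GGTTCAagcagAGTTCA
The elements near Hoxa3 and Hoxb3 were the same in all 17 bases, spacer included. The distance from these 5 elements to the nearest peak of any list was 14.4 kb (Hoxa3), 66.4 kb (Hoxb3), 34.8 kb (Hoxb1) and 21.6 kb (Hoxc4), and the Hoxd window had no peak. The smallest distance between any DR5 and a peak was 2.36 kb, from the remaining element of this arrangement to the p300 place beyond Hoxa2, and for DR2 it was 188 bp, beside a p300_Ctl peak at Hoxa10. Over all peaks of the 4 lists a DR5 was itself rare, in 0.0993% of p300 peaks and 0.0956% of myogenin peaks, so that a count of 0 in 57 peaks does not set these clusters apart.

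Genes that work with the Hox proteins were looked at by the same rule. Of 9 genes for the TALE homeodomain cofactors of Hox proteins, 8 had a peak in at least 1 list. By list these were 5 in Myog_Ctl, 4 in Myog_Bex, 6 in p300_Ctl and 4 in p300_Bex. Examples picked after the values were seen were Meis1 with 6 p300_Ctl and 0 p300_Bex peaks and Pknox1 with 5 Myog_Ctl and 3 Myog_Bex peaks. Of 7 Polycomb genes 4 had a peak in at least 1 list (2 in Myog_Ctl, 0 in Myog_Bex, 2 in p300_Ctl and 3 in p300_Bex). In the same order of lists, 15.5, 15.3, 27.9 and 16.1% of all protein-coding genes had a peak. The counts over any list have no background share, and no test of either group was made. Evx1 and Evx2, homeobox genes that neighbor the Hoxa and Hoxd clusters, had none.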

How the data were processed

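Myogenin and p300 ChIP-seq peaks of C2C12 cells were analysed as the authors deposited them. A list gives the chromosome, start and end of every call, with no tag count, height or comparison to input. Myogenin reads had been mapped to mm9 by the authors with BWA-MEM and p300 reads with Bowtie, and after Picard had taken out duplicates, HOMER findPeaks (factor style, region option) was run by library. Of 8 samples, the 4 with a list were used, and the input and H3K27me3 libraries were not used here. Starts were read as counted from 0 and are printed from 1, so a position may be off by 1 base if they were counted from 1.

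Peaks within 50 kb of a cluster were taken, with gene bodies and protein-coding starts from GENCODE vM1 in place of the RefSeq starts of the study. Overlap meant at least 1 bp. Genes were named where a peak lay in the body or its center within 10 kb of a start. With more than 40 merged regions, positions were given for regions with both factors, for peaks called only in bexarotene and for the longest of each cluster and list, and others named for description were chosen after their values were seen. The members and lists were chosen with earlier results of these data known. Shares carry Wilson and densities Poisson intervals at 95%. Sequences came from the mm9 genome, and 1 sequence and 1 gene that the naming rule covers are not reported here. Alternatives changed the flank, the overlap rule, the distance to starts, the E-box, the motif window and the shortest peaks. The functions were tested on simulated data in 6 steps of 400 items each, and all 6 were recovered. Python 3.11.15, numpy 2.4.6, pandas 2.3.3, scipy 1.17.1, pysam 0.24.0 and matplotlib 3.10.9 were used.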

Additional observations from a re-analysis of the deposited data

How the results depend on the processing

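Under the alternatives 57 values of the comparisons stayed within 1.5 times or within counting error of those reported, and 27 did not. When only peaks longer than the smallest of their list were kept, the counts fell to 0 Myog_Ctl, 2 Myog_Bex, 16 p300_Ctl and 5 p300_Bex peaks, and those without overlap between conditions to 0, 2, 12 and 1, since 34 of the 57 peaks have the smallest length. With 100 kb flanks, 1 of 10 Myog_Ctl, 1 of 10 Myog_Bex, 10 of 44 p300_Ctl and 10 of 15 p300_Bex peaks were shared between conditions. The p300_Bex peaks unique to bexarotene were then 5 of 15, nearer to the 20.3% of that list. With no flank 3 of 26 p300_Ctl and 3 of 8 p300_Bex peaks were shared, while the p300_Ctl density rose to 53.6 per Mb. With centers within 500 bp in place of overlap, 8 p300_Ctl peaks were shared between conditions, and 1 Myog_Ctl, 2 Myog_Bex, 1 p300_Ctl and 2 p300_Bex peaks met the other factor. Counting the other factor in either condition gave 3 Myog_Bex and 3 p300_Ctl peaks. Within 5 kb of a start lay 62.5% of Myog_Bex, 71.9% of p300_Ctl and 70.0% of p300_Bex peaks. Any CANNTG within 50 bp of the center raised the shares to 62.5% for Myog_Bex, 25.0% for p300_Ctl and 50.0% for p300_Bex. The shares of the whole lists were computed neither for this measure nor for 5 kb, so these values have no background. Over the whole peak, any CANNTG was in 62.5% of the Myog_Bex peaks here against 90.6% of that list. The central 200 bases as motif window, chosen after seeing the data, moved 3 motif counts of 1 or 2 peaks and left 17 within the same limits, but against the share of the list in the same window the p300_Ctl intervals for Tead and Meis and the p300_Bex interval for TGACTCA no longer excluded it, and that of p300_Bex for Runx did. No paired analysis was possible because each condition has 1 library. With no tag counts, a stricter peak threshold could not be tried, and neither depth nor peak strength limits could be set, so a call in 1 condition is not a measured difference in occupancy.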
